A study of Mus musculus with 27 samples.

Results

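The mouse genes with symbols Zfp900 to Zfp999 encode mostly C2H2 zinc finger proteins, and many of them lie side by side in clusters that expanded in rodents. The set was defined as the rows of the deposited count table whose gene is protein-coding in the GENCODE M21 annotation and carries such a symbol. It held 63 genes of the 43346 genes in the table, and of the 21474 protein-coding ones. Another 302 protein-coding genes with a Zfp symbol lay outside it.

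A C2H2 zinc finger is a short loop folded around a zinc ion, and arrays of fingers read DNA sequence. Many such proteins also carry a KRAB domain, which binds the corepressor TRIM28. TRIM28 brings in the histone methyltransferase SETDB1, which deposits the repressive mark H3K9me3, and the best known targets are endogenous retroviruses and other mobile elements. Deletion of whole KRAB zinc finger clusters in mouse embryonic stem cells is known to raise transcripts of particular retroviruses. The clusters grew by gene duplication, and their copy number and sequence are known to differ between mouse strains.

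Poly(A) RNA was sequenced from hepatocytes of female mice aged 12 weeks from 9 inbred strains, with 3 libraries a strain and no treatment named in the labels. The question of the series is how variation in chromatin goes with variation in expression across strains. The laboratory strains were A/J, DBA/2J, 129S1/SvImJ and C57BL/6J, NZO/HlLtJ, which becomes obese, and NOD/ShiLtJ, which develops autoimmune diabetes. The wild-derived strains were PWK/PhJ, WSB/EiJ and CAST/EiJ. C57BL/6J is the strain of the mouse reference genome. The 3 libraries of a strain are labelled as biological replicates, and nothing says which animals were housed or prepared together, so a p-value here measures the spread between these libraries.

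Library totals ran from 17015956 to 35078511 estimated counts, so that 1 count was worth 0.0253 to 0.0516 CPM (counts per 1000000 in a library) after normalisation. All 10 hepatocyte markers examined had counts, and the strain means of their summed level ran from 118400 to 275400 CPM. Most of that sum was Alb, at 86600 CPM in CAST/EiJ and 229400 CPM in A/J, while Cps1, Ass1 and Tat had their lowest means in A/J. Markers of other liver cells were present too and differed between strains. As strain means, the sum of 11 Kupffer cell markers ran from 61.7 CPM in 129S1/SvImJ to 254 CPM in C57BL/6J, that of 10 endothelial markers from 75.2 CPM in NZO/HlLtJ to 392 CPM in PWK/PhJ, that of 9 stellate cell markers from 41.0 CPM in NZO/HlLtJ to 153 CPM in PWK/PhJ, and that of 8 lymphocyte markers from a CAST/EiJ mean of 2.03 CPM to 24.1 CPM in NOD/ShiLtJ, of which Ighm alone was 22.3. The 6 cholangiocyte markers summed to 1.98 to 8.49 CPM and the 6 erythroid markers to 4.33 to 24.1 CPM, of which Alas2 alone was 22.9 in NZO/HlLtJ, and no marker of any list was at 0 throughout. In bulk samples, fewer cells of a type and less RNA per cell cannot be told apart.

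The 63 genes fell on 12 chromosomes. Joining members less than 1 Mb apart gave 6 chains of at least 2 members, which together held 45 of the 63. The longest chain in members, with 16, lay at chr4:145510759-147848366 (GRCm38). Chains of 10 members each lay at chr2:175372436-178078476 and chr17:21567008-22867134. Smaller chains lay at chr7:42579783-43192109 with 4 members, chr8:69209038-69749970 with 3 and chr13:62453715-62571199 with 2.

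The predicted proteins had 0 to 21 C2H2 fingers, with a median of 11, and 57 of the 63 had at least 5. A pattern at the end of the KRAB A box was found in 52. Many members are near copies of other transcribed sequences. Of the 100-base windows of the longest annotated transcript, at least 10% also occurred in another gene's transcript for 28 members, and at least 50% for 13 members. In 17 members no window was shared. The deposited counts were estimates that split such reads: 22 members had fractional counts in all 27 libraries, and 14 had whole counts in every library. Values of the first kind are uncertain, because reads of near-identical copies cannot be assigned from the sequence alone.

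The likeness extends to the promoters, and those of the chromosome 2 chain are shown because its members had the widest ranges in level. RefSeq windows of 300 bases around annotated transcription starts (GRCm38.p6) were matched by symbol to 53 of the 63 members. Among the 9 members of the chromosome 2 chain with a window, the median identity of a pair was 97.6%, and 23 of 36 pairs were at least 95% identical. The windows of Zfp966 and Zfp967 were identical over 300 bases. The 250 bases before the start are given 5′ to 3′ for 4 members, and capitals mark letters that differ from Zfp970 in the alignment. They lie at chr2:177464492-177464741 on the plus strand for Zfp970, chr2:175931101-175931350 on the minus strand for Zfp966, chr2:178023034-178023283 on the plus strand for Zfp971 and chr2:178078426-178078675 on the minus strand for Zfp931.
Zfp970: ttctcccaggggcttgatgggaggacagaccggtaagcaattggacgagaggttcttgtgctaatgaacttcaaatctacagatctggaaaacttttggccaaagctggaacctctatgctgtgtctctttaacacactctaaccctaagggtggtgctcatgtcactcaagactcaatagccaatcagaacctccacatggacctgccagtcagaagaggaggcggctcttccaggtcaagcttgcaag
Zfp966: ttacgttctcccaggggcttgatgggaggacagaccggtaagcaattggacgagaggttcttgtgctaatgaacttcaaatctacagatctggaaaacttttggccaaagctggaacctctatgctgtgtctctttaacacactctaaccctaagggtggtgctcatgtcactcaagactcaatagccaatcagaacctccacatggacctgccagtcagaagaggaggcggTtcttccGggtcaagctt
Zfp971: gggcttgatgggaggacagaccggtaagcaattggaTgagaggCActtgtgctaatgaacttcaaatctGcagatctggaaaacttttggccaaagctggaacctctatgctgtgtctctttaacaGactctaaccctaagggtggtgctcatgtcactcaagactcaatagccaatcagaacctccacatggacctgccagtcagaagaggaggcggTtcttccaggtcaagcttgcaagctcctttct
Zfp931: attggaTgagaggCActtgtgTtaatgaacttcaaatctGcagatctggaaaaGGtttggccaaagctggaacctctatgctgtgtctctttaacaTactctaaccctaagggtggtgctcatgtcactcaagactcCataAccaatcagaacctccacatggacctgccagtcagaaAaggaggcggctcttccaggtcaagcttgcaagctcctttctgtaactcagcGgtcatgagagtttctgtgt
Zfp966 had 2 capitals in the printed stretch, Zfp971 had 6 and Zfp931 had 12. The alignments covered 295, 291 and 261 bases of the windows and gave identities to Zfp970 of 99.3%, 97.6% and 95.4%. The most distant member was Zfp972, with identities of 77.4% to 79.4% to the other 8.

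Members of the chromosome 4 chain were less alike, with a median identity of 84.8% over 28 aligned pairs. The windows of Zfp982 and Zfp979 are shown because these genes were high in different strains. They lie at chr4:147492167-147492416 on the plus strand and chr4:147642509-147642758 on the minus strand, and capitals mark letters of Zfp979 that differ from Zfp982.
Zfp982: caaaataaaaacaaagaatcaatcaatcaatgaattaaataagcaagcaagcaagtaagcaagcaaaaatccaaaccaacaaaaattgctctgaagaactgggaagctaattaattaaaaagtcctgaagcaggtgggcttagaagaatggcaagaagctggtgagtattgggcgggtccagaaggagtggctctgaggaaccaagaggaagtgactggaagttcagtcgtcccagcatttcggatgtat
Zfp979: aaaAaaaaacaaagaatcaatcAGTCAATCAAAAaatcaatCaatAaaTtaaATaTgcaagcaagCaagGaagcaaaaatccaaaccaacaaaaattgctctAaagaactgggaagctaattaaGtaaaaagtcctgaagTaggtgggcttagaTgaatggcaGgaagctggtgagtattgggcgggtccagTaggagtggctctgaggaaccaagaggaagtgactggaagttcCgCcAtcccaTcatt
The pair was 88.0% identical over 300 bases. In the chromosome 17 chain the median identity was 56.9%, although Zfp942 and Zfp944 were 99.6% identical over 275 bases. The letters CCAAT, on either strand, occurred in 46 of the 60 windows of members (76.7%) and in 37.4% of all 32851 windows in the table. All 9 windows of the chromosome 2 chain held them. The letters TATAAA, on either strand, occurred in none of the 60 windows and in 13.6% of all windows. A match describes letters, and binding was not measured here.

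A gene was taken as detected in a strain where all 3 of its libraries held at least 10 counts. By that rule 48 of the 63 members were detected in at least 1 strain, against 57.7% of all protein-coding genes, and 31 were detected in all 9 strains, against 46.7%. Of the 302 other Zfp genes, 260 were detected in at least 1 strain and 197 in all 9. The number of members detected in a strain ran from 37 in A/J to 45 in NOD/ShiLtJ. It was 43 in C57BL/6J, 42 in 129S1/SvImJ, 39 in DBA/2J, 41 in NZO/HlLtJ, 39 in WSB/EiJ, 40 in CAST/EiJ and 41 in PWK/PhJ.

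The chains differed in how many members were detected. All 10 members of the chromosome 17 chain were detected, 9 of them in all strains. In the chromosome 2 chain 8 of 10 were detected, 6 of them in all strains. In the chromosome 4 chain 7 of 16 were detected, and Zfp933, its last member in map order, was the 1 detected in all 9 strains. Of the 15 members detected in no strain, 9 were in the chromosome 4 chain (Zfp990, Zfp980, Zfp986, Zfp987, Zfp981, Zfp989, Zfp988, Zfp978 and Zfp985). The other 6 were Zfp969 and Zfp967 on chromosome 2, Zfp936, Zfp964, Zfp934 and Zfp957. Zfp989 was at 0 in every library, and no library held more than 29.3 counts of any of the 15. Zfp967 reached 1 count in 1 DBA/2J library and rounded to 0 in the other 26, while Zfp966, whose promoter window is identical in the reference, averaged 6.89 CPM over all libraries. All 100-base windows of the Zfp967 transcript also occur in Zfp969, so the counts of that pair rest on how shared reads were assigned.

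**Figure D1:**
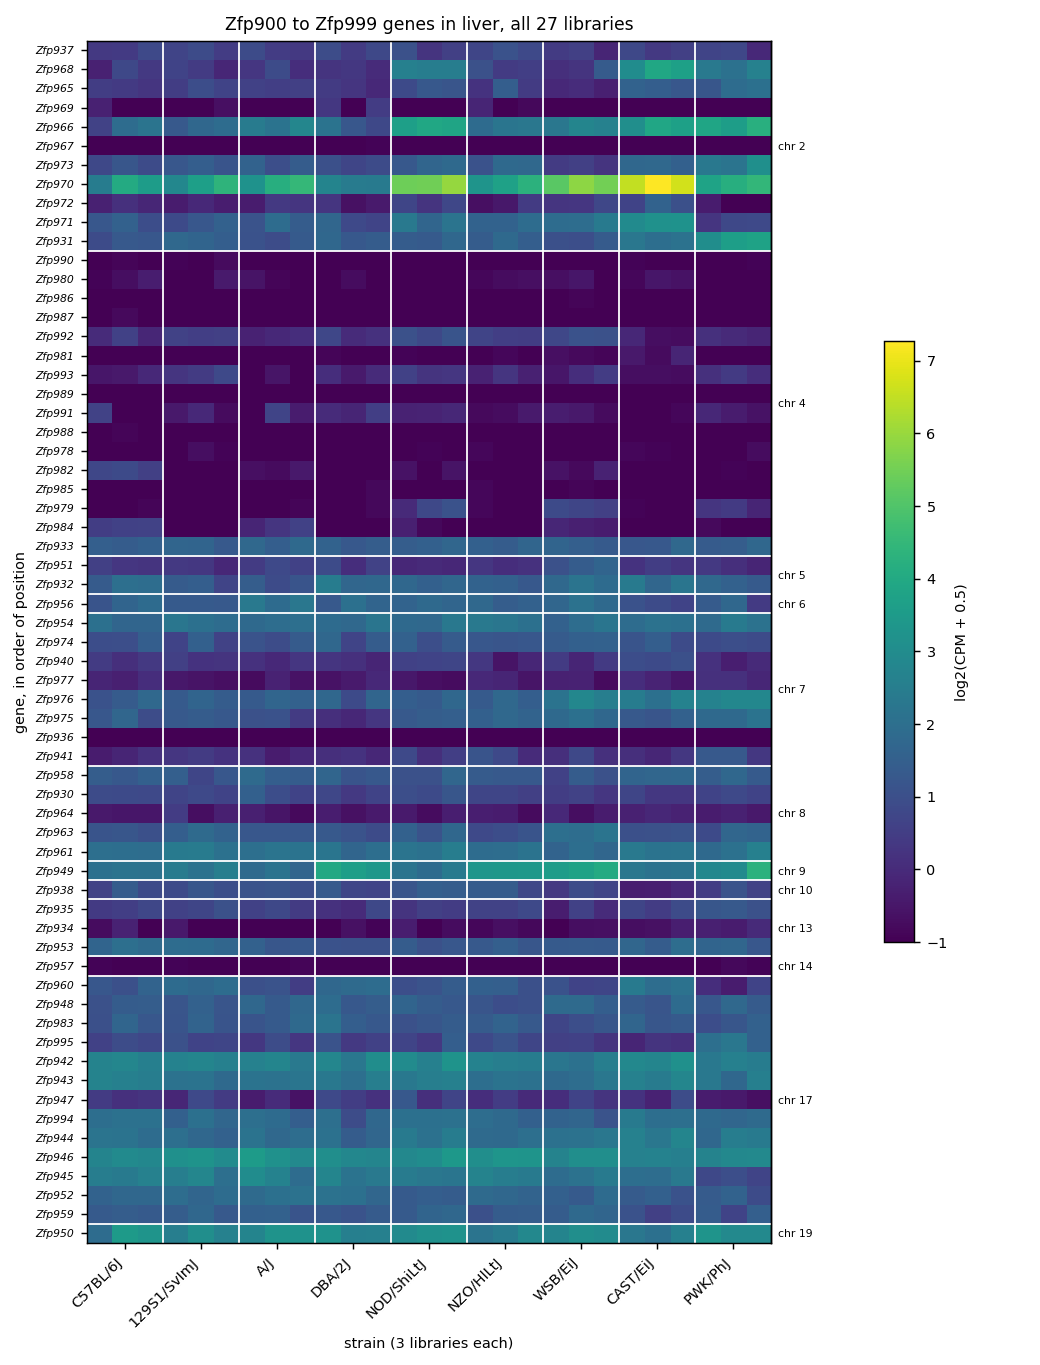
Heat map of log2(CPM + 0.5) for all 63 genes (rows, in order of chromosome and position) in all 27 libraries (columns, 3 for each of the 9 strains). The brightest row is Zfp970, highest in the 3 CAST/EiJ libraries, and most rows of the chromosome 4 chain stay dark in every strain.

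The members were expressed at low levels. Over the 50 members that passed the filter on low counts, which were the 48 detected ones with Zfp964 and Zfp969, the mean over all libraries had a median of 2.15 CPM, a lowest value of 0.0962 CPM and a highest of 32.1 CPM. Per kilobase of annotated exon, Zfp970 stood highest at 14.8 CPM per kb, followed by Zfp966 at 2.31 and Zfp946 at 2.13. The summed level of all 63 members ran from 113 ± 21.2 CPM in DBA/2J to 250.3 ± 32.9 CPM in CAST/EiJ (mean ± SD, n = 3, as for all such values here). Without Zfp970 the sums of the other 62 ran from 104 ± 10.3 CPM in C57BL/6J to 140 ± 16.1 CPM in PWK/PhJ. CAST/EiJ then stood at 134 ± 7.78 CPM and NOD/ShiLtJ at 130 ± 12.5 CPM.

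A difference among the 9 strains was called for 35 of the 50 tested members (edgeR quasi-likelihood F test over 14482 genes, adjusted p below 0.05). That share was close to the background, since 74.2% of all genes tested were called, and 73.4% of the genes at levels within the middle range of the members. A called difference with at least a 2-fold range between the highest and lowest strain was found for 27 of the 50, against 43.6% of all genes and 62.5% of the genes at similar levels. These ranges were taken on log2(CPM + 0.5), which understates the change of low genes. A range of at least 8-fold on that scale was found for 2, Zfp968 and Zfp970, against 6.2% of all genes and 10.5% of the genes at similar levels. On CPM alone, low members such as Zfp972, Zfp979, Zfp982 and Zfp984 also reached at least 8-fold between strains. The share of all genes that did so on that scale is not given here. The Zfp972 fold rests on PWK/PhJ libraries at 0.280, 0 and 0 CPM. The median log2 range was 1.09 for members, 0.941 for all genes and 1.34 for the genes at similar levels. For the other Zfp genes it was 0.718, with 135 of 264 called.

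Of all genes tested 74.2% were called, with a median log2 range of 0.941, and differences between chains were not tested. In the chromosome 2 chain all 9 tested members were called, with a median log2 range of 2.36. These include near copies that share reads, such as Zfp968 and Zfp965, and Zfp969, which was detected in no strain. In the chromosome 4 chain 5 of 7 (71.4%) were called, with a median of 1.49, and in the chromosome 17 chain 7 of 10 (70%), with a median of 0.678. Both shares lay near that of all genes. Among the 34 tested members outside the chains of chromosomes 2 and 4, 21 were called (61.8%), with a median of 0.797. By the kind of count, 18 of 21 tested members with fractional counts in all 27 libraries were called (85.7%), and 10 of 18 with whole counts in at least 22 (55.6%). The part of read assignment in these differences was not tested. When the mean levels of the Kupffer cell and endothelial lists were added to the fit as covariates, 32 of the 35 called members were still called.

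On chromosome 2, Zfp970 showed the widest range of all members. It was measured at 89.7, 154 and 104 in CAST/EiJ, 43.2, 44.5 and 62.02 in NOD/ShiLtJ and 35.4, 58.3 and 45.3 in WSB/EiJ (CPM of each library). In the other strains it was at 13.4, 17.7 and 21.97 in PWK/PhJ, 8.77, 17.5 and 22.04 in A/J, 9.20, 12.8 and 19.4 in NZO/HlLtJ, 6.54, 12.2 and 20.4 in 129S1/SvImJ, 5.09, 16.1 and 11.4 in C57BL/6J and 6.17, 4.97 and 4.69 in DBA/2J. The 9 libraries of CAST/EiJ, NOD/ShiLtJ and WSB/EiJ all lay above the 18 others, and the CAST/EiJ libraries lay above all the rest. The CAST/EiJ mean of 116 ± 33.6 CPM was 21.97 times the DBA/2J mean of 5.27 ± 0.784 CPM. Against C57BL/6J, CAST/EiJ was higher by a log2 fold change of 3.42 (SE 0.42, edgeR adjusted p = 6.79e-07), NOD/ShiLtJ by a log2 fold change of 2.20 (SE 0.40, edgeR adjusted p = 0.000376) and WSB/EiJ by a log2 fold change of 2.09 (SE 0.40, edgeR adjusted p = 0.000548). PWK/PhJ was not called, at a log2 fold change of 0.70 (SE 0.39, edgeR adjusted p = 0.198). Zfp970 lies at chr2:177464733-177478129, its product has 14 fingers, and 19.4% of its transcript windows occur in other genes.

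Zfp968 and Zfp966 shared a different set of high strains. Zfp968 was at 7.66, 14.5 and 12.5 in CAST/EiJ, 5.52, 5.20 and 5.16 in NOD/ShiLtJ and 4.55, 3.75 and 5.74 in PWK/PhJ. Elsewhere it was at 1.58, 0.861 and 0.962 in NZO/HlLtJ, 0.590, 0.686 and 2.12 in WSB/EiJ, 0.731, 1.36 and 0.553 in A/J, 1.09, 0.859 and 0.424 in 129S1/SvImJ, 0.342, 1.23 and 0.799 in C57BL/6J and 0.676, 0.753 and 0.510 in DBA/2J. All 9 libraries of CAST/EiJ, NOD/ShiLtJ and PWK/PhJ exceeded the 18 others, whose highest value was 2.12 CPM in 1 WSB/EiJ library. Against C57BL/6J the log2 fold changes were 3.88 in CAST/EiJ (SE 0.45, edgeR adjusted p = 3.26e-07), 2.76 in NOD/ShiLtJ (SE 0.45, adjusted p = 9.51e-05) and 2.58 in PWK/PhJ (SE 0.45, adjusted p = 0.000104). Zfp966 was at 14.1, 11.7 and 18.1 in PWK/PhJ, 12.2, 14.6 and 13.8 in NOD/ShiLtJ and 7.95, 14.3 and 12.5 in CAST/EiJ. In the remaining strains it was at 4.30, 6.25 and 5.66 in WSB/EiJ, 4.93, 3.93 and 6.40 in A/J, 3.24, 4.18 and 4.33 in NZO/HlLtJ, 1.06, 3.29 and 4.08 in C57BL/6J, 1.99, 2.89 and 3.26 in 129S1/SvImJ and 3.97, 1.86 and 1.24 in DBA/2J. The same 3 strains were high, and their ranges overlapped each other. Of the windows of the Zfp968 transcript, 98.6% also occur in other genes, chiefly Zfp966, so how the reads divide between these copies is uncertain.

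**Figure D2:**
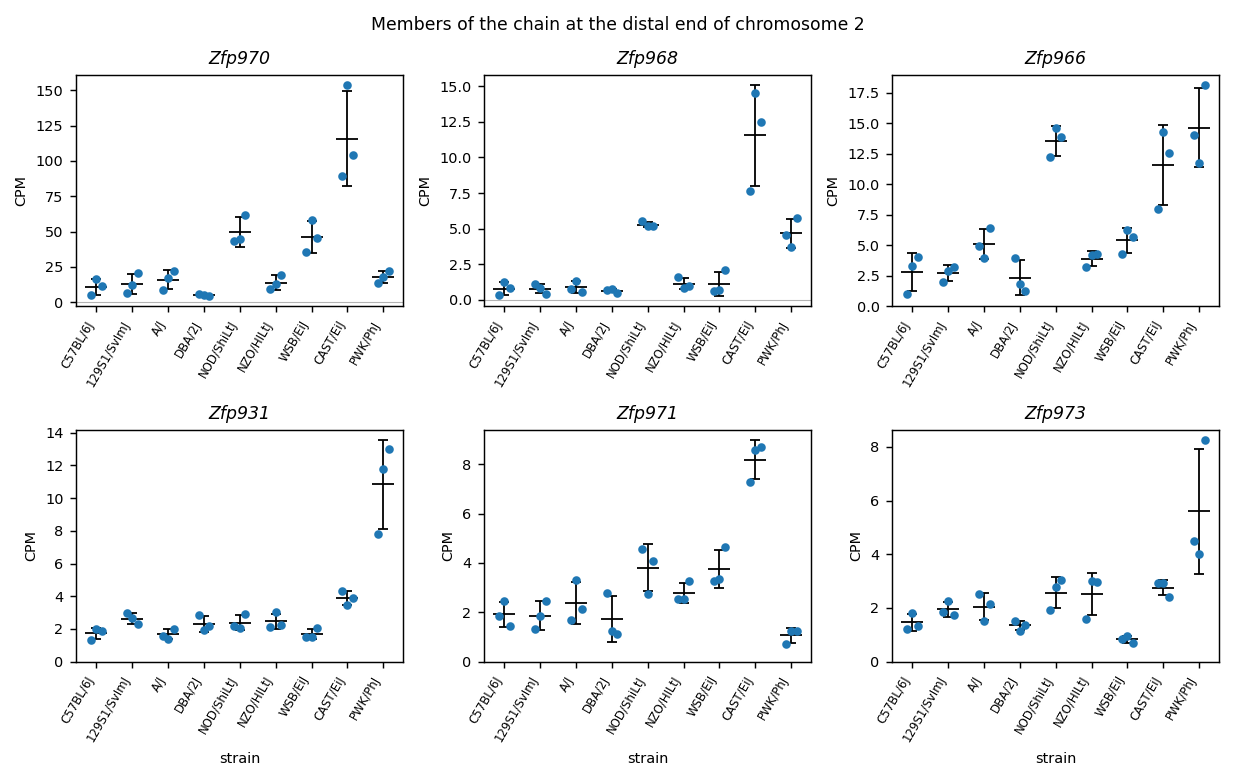
CPM of 6 members of the chromosome 2 chain in each strain: points are the 3 libraries, bars the mean and error bars the SD, each panel with its own linear axis from 0. Zfp970 reaches 154 CPM in CAST/EiJ, while Zfp931 and Zfp973 are highest in PWK/PhJ.

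Zfp931, at the distal end of the chain, had the strongest evidence of a strain difference among members (edgeR adjusted p = 4.48e-10). It was at 7.79, 11.8 and 12.98 in PWK/PhJ and 4.32, 3.44 and 3.87 in CAST/EiJ. The other strains were at 2.95, 2.69 and 2.28 in 129S1/SvImJ, 2.14, 3.01 and 2.25 in NZO/HlLtJ, 2.17, 2.04 and 2.89 in NOD/ShiLtJ, 2.87, 1.91 and 2.17 in DBA/2J, 1.33, 1.97 and 1.89 in C57BL/6J, 1.52, 1.49 and 2.07 in WSB/EiJ and 1.60, 1.40 and 2.02 in A/J. PWK/PhJ lay above all other libraries and CAST/EiJ next, with no overlap between these steps. PWK/PhJ exceeded C57BL/6J by a log2 fold change of 2.65 (SE 0.24, edgeR adjusted p = 7.06e-09), and CAST/EiJ by a log2 fold change of 1.17 (SE 0.24, edgeR adjusted p = 0.000482). Of the Zfp931 transcript windows 6.38% are shared, its counts were fractional in all 27 libraries, and its product has 7 fingers.

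Zfp971, the neighbour of Zfp931, was lowest in the strain where Zfp931 was highest. It was at 7.27, 8.58 and 8.71 in CAST/EiJ, 4.58, 2.74 and 4.08 in NOD/ShiLtJ and 3.29, 3.35 and 4.65 in WSB/EiJ. The others were at 2.55, 2.53 and 3.27 in NZO/HlLtJ, 1.69, 3.32 and 2.13 in A/J, 1.85, 2.46 and 1.43 in C57BL/6J, 1.30, 1.86 and 2.44 in 129S1/SvImJ, 2.79, 1.25 and 1.12 in DBA/2J and 0.719, 1.24 and 1.26 in PWK/PhJ. The CAST/EiJ libraries lay above all 24 others. The NOD/ShiLtJ and WSB/EiJ libraries lay above those of C57BL/6J but overlapped other strains. CAST/EiJ exceeded C57BL/6J by a log2 fold change of 2.09 (SE 0.33, edgeR adjusted p = 1.96e-05). NOD/ShiLtJ and WSB/EiJ were also called higher, with log2 fold changes of 0.99 (SE 0.32, edgeR adjusted p = 0.0394) and 0.97 (SE 0.33, adjusted p = 0.0484). Both calls were lost without C57BL/6J replicate 1 or 4, the NOD/ShiLtJ call also without replicate 1 or 3 of that strain and the WSB/EiJ call without any 1 library of that strain, at edgeR adjusted p of 0.072 to 0.181 and 0.0594 to 0.199. In PWK/PhJ the log2 fold change was -0.82 (SE 0.34, edgeR adjusted p = 0.083), which was not called.

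The other members of this chain varied as well. Zfp973 had its highest mean in PWK/PhJ, at 5.60 ± 2.32 CPM, and its lowest in WSB/EiJ, at 0.834 ± 0.139 CPM (edgeR adjusted p = 1.77e-06). Zfp965 had the same extremes, at 2.91 ± 0.943 CPM and 0.437 ± 0.104 CPM (edgeR adjusted p = 2.86e-05), and all of its transcript windows occur in Zfp973. Zfp972, whose short product has no complete finger, was at 1.72 ± 0.722 CPM in CAST/EiJ and 0.0932 ± 0.161 CPM in PWK/PhJ (edgeR adjusted p = 0.00402). Zfp969 was called (edgeR adjusted p = 0.0305) on counts above 10 in 4 libraries, 2 of them DBA/2J, and the call was lost in several alternatives. Summed over the 10 members, the chain gave 15.3 ± 4.36 CPM in DBA/2J and 158 ± 40.4 CPM in CAST/EiJ. Across the 9 strain means, pairs of chain members had a median Spearman correlation of 0.44 over 36 pairs, which share libraries and partly reads. The pairs ran from -0.86 to 0.98, and 25 of the 36 were positive. The medians were 0.18 in the chromosome 4 chain, 0.23 in that of chromosome 7, 0.20 in that of chromosome 8 and -0.07 in that of chromosome 17, and 0.00 over pairs from different chains.

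On chromosome 4, 3 nearby genes were present in some strains and close to 0 in others. Zfp982 lies at chr4:147492417-147513486 and is known as a gene active in mouse embryonic stem cells. It held 35, 32 and 23 counts in the C57BL/6J libraries, which is 1.20, 1.31 and 0.968 CPM. It was at 0.137, 0.0936 and 0.237 in A/J, 0.169, 0.0807 and 0.368 in WSB/EiJ and 0.162, 0 and 0.174 in NOD/ShiLtJ. It had no count in any library of 129S1/SvImJ, DBA/2J, NZO/HlLtJ or CAST/EiJ, and 1 count in 1 library of PWK/PhJ. Every C57BL/6J library lay above the 24 others, of which the highest was at 0.368 CPM. No library of another strain reached 10 counts, so the gene passed the filter on low counts through C57BL/6J alone. Against a floor of 3 counts per library, C57BL/6J was at least 12.6-fold higher than 129S1/SvImJ, 9.32-fold higher than DBA/2J, 14-fold higher than NZO/HlLtJ, 10.4-fold higher than CAST/EiJ and 10.8-fold higher than PWK/PhJ. In the fit with no filter on low counts, the edgeR adjusted p values of these 5 comparisons were 5.27e-05, 0.00014, 3.27e-05, 3.25e-05 and 0.000186. NOD/ShiLtJ was lower (log2 fold change -3.31, SE 0.81, edgeR adjusted p = 0.0179 with no filter). The calls for A/J (edgeR adjusted p = 0.0367) and WSB/EiJ (adjusted p = 0.0422) were lost when any 1 library of C57BL/6J or of the strain was left out, with adjusted p of 0.0708 to 0.141 for A/J and 0.0526 to 0.177 for WSB/EiJ. Only 2.95% of the Zfp982 transcript windows are shared, and its counts were whole numbers in every library. C57BL/6J also had the highest strain mean of the summed Kupffer cell markers, at 254 CPM, although the highest single library, at 449.9 CPM, was from PWK/PhJ. With the Kupffer cell and endothelial means as covariates, the calls for NOD/ShiLtJ and WSB/EiJ were lost (edgeR adjusted p of 0.0747 and 0.0856) and the other 6 were kept. The log2 fold changes of these 2 strains were then -4.73 and -4.01, against -3.31 and -2.49 without the covariates.

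Zfp984 was high in C57BL/6J and A/J. It was at 0.923, 1.03 and 1.05 in C57BL/6J, 0.411, 0.702 and 1.03 in A/J, 0.421, 0.323 and 0.276 in WSB/EiJ, 0.325, 0.0693 and 0 in NOD/ShiLtJ and 0.0799, 0 and 0 in PWK/PhJ. It rounded to 0 in every library of 129S1/SvImJ, DBA/2J, NZO/HlLtJ and CAST/EiJ. The C57BL/6J and A/J libraries overlapped, and the difference between them was not called (log2 fold change -0.48, SE 0.75, edgeR adjusted p = 0.828). Against the floor, C57BL/6J was at least 10.8-fold higher than 129S1/SvImJ, 8.05-fold higher than DBA/2J, 12.1-fold higher than NZO/HlLtJ, 8.99-fold higher than CAST/EiJ and 9.31-fold higher than PWK/PhJ. With the Kupffer cell and endothelial means as covariates, the calls for 129S1/SvImJ, NZO/HlLtJ and CAST/EiJ were lost (edgeR adjusted p of 0.226, 0.166 and 0.127). Their log2 fold changes were then -5.86, -5.83 and -5.88, against -7.82 in each without the covariates, all from strains that rounded to 0. Zfp984 met the detection rule in C57BL/6J alone and passed the filter on low counts through the strains where it was high. NOD/ShiLtJ was called lower (log2 fold change -2.86, SE 0.85, edgeR adjusted p = 0.0316, or 0.0359 with no filter). That call was lost with the Kupffer cell and endothelial covariates (log2 fold change -1.48, adjusted p = 0.714). It was also lost without C57BL/6J replicate 2 or 4 or NOD/ShiLtJ replicate 2 or 3 (0.0762 to 0.117). The 4 strains that rounded to 0 for Zfp984 were also at 0 for Zfp982. Of the Zfp984 transcript windows 31.2% are shared, chiefly with Gm13212, and its exons overlap Gm20707 on the same strand. Its counts were fractional in 16 libraries, so its values are less certain than those of Zfp982.

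Zfp979, which lies between Zfp982 and Zfp984, had another pattern. It was at 0.487, 1.25 and 1.64 in NOD/ShiLtJ, 1.31, 1.17 and 0.967 in WSB/EiJ and 0.719, 0.825 and 0.398 in PWK/PhJ. In the 18 libraries of the other 6 strains it held at most 2 counts each, with 0, 0 and 0.0421 in C57BL/6J, 0, 0 and 0.0395 in A/J, 0, 0 and 0.0638 in DBA/2J, 0.0510, 0 and 0 in NZO/HlLtJ and 0.0295, 0 and 0 in CAST/EiJ and 0 in all 3 libraries of 129S1/SvImJ. The 2 sets of libraries did not overlap, and the gap ran from 0.0638 to 0.398 CPM. Relative to C57BL/6J at its floor, NOD/ShiLtJ was higher by at least 9.58-fold, WSB/EiJ by at least 9.78-fold and PWK/PhJ by at least 5.52-fold, and the gene passed the filter on low counts through these 3 strains alone. In the fit with no filter, the edgeR adjusted p were 4.27e-05, 3.23e-05 and 0.000284. PWK/PhJ and C57BL/6J thus differed in opposite directions for Zfp979 and Zfp982.

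**Figure D3:**
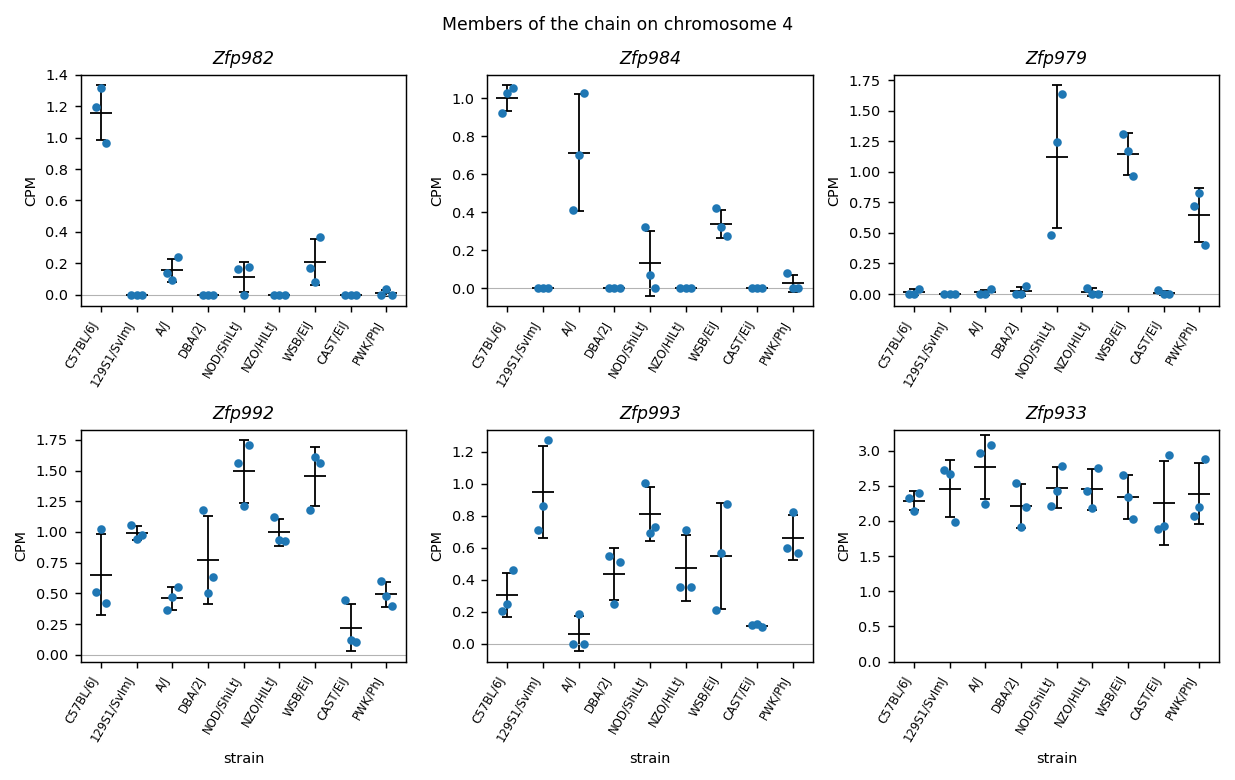
CPM of 6 members of the chromosome 4 chain in each strain: points are the 3 libraries, bars the mean and error bars the SD, each panel with its own linear axis. Zfp982 is at 0.968 CPM or above in C57BL/6J and at 0.368 CPM or below in the other strains, Zfp979 is at 0.398 CPM or above in NOD/ShiLtJ, WSB/EiJ and PWK/PhJ, and the Zfp933 strains overlap.

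Further members of the chain were detected in more strains. Zfp992 was at 1.49 ± 0.254 CPM in NOD/ShiLtJ and 1.45 ± 0.237 CPM in WSB/EiJ, and at 0.222 ± 0.192 CPM in CAST/EiJ, which was lower than C57BL/6J (log2 fold change -1.46, SE 0.47, edgeR adjusted p = 0.016). That call was lost without C57BL/6J replicate 2 or CAST/EiJ replicate 4 or 5. Of the Zfp992 transcript windows 28.6% are shared, and its counts were fractional in all 27 libraries. Zfp993 was at 0.948 ± 0.290 CPM in 129S1/SvImJ and 0.0624 ± 0.108 CPM in A/J (edgeR adjusted p = 0.000759), and 71.85% of its transcript windows are shared. Zfp991 was at 1.06, 0 and 0 in C57BL/6J, 0.248, 0.458 and 0.0978 in 129S1/SvImJ, 0, 1.12 and 0.277 in A/J, 0.507, 0.402 and 0.956 in DBA/2J and 0.357, 0.381 and 0.453 in NOD/ShiLtJ. In the rest it was at 0.0765, 0.101 and 0.257 in NZO/HlLtJ, 0.295, 0.242 and 0.0921 in WSB/EiJ, 0, 0 and 0.0515 in CAST/EiJ and 0.439, 0.275 and 0.166 in PWK/PhJ. Its libraries disagreed within strains: 1 of the 3 C57BL/6J libraries held 31.4 counts and the others rounded to 0. Of the Zfp991 transcript windows 73.84% are shared, chiefly with Znf41-ps, and its counts were fractional in 25 of the 27 libraries. The part of read assignment in this disagreement was not tested. CAST/EiJ was called lower than C57BL/6J (log2 fold change -4.49, SE 1.60, edgeR adjusted p = 0.0299), but without C57BL/6J replicate 1 the fold change was 1.89 and not called. The strain effect as a whole was not called (edgeR adjusted p = 0.142) and was called without that library (edgeR adjusted p = 0.00602). Zfp933 had the smallest F of all tested members (edgeR adjusted p = 0.915). It was at 2.32, 2.13 and 2.40 in C57BL/6J, 2.73, 2.66 and 1.99 in 129S1/SvImJ, 2.97, 2.25 and 3.08 in A/J, 2.53, 1.91 and 2.20 in DBA/2J and 2.21, 2.42 and 2.79 in NOD/ShiLtJ. It was at 2.42, 2.18 and 2.76 in NZO/HlLtJ, 2.65, 2.34 and 2.03 in WSB/EiJ, 1.89, 1.93 and 2.94 in CAST/EiJ and 2.08, 2.20 and 2.89 in PWK/PhJ. All 9 strains overlapped.

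On chromosome 9, Zfp949 separated the strains into groups. This gene stands alone at chr9:88548020-88571061, its product has a KRAB pattern and 11 fingers, and none of its transcript windows is shared. It was at 15.5, 11.8 and 9.79 in DBA/2J, 9.71, 9.97 and 10.2 in NZO/HlLtJ, 11.5, 13.2 and 16.02 in WSB/EiJ and 6.59, 7.18 and 19.5 in PWK/PhJ. It was at 3.69, 3.98 and 3.87 in C57BL/6J, 4.87, 3.81 and 5.31 in 129S1/SvImJ, 3.11, 3.93 and 2.73 in A/J, 3.99, 3.22 and 4.77 in NOD/ShiLtJ and 4.34, 3.87 and 4.02 in CAST/EiJ. The highest of the 15 libraries in the second set was 5.31 CPM and the lowest of the 12 in the first set was 6.59 CPM, so these sets did not overlap. In PWK/PhJ 1 library, replicate 3, stood well above the other 2. Against C57BL/6J, DBA/2J was higher by a log2 fold change of 1.69 (SE 0.29, edgeR adjusted p = 0.00022), NZO/HlLtJ by a log2 fold change of 1.37 (SE 0.29, edgeR adjusted p = 0.00121), WSB/EiJ by a log2 fold change of 1.81 (SE 0.29, edgeR adjusted p = 6.24e-05) and PWK/PhJ by a log2 fold change of 1.53 (SE 0.29, edgeR adjusted p = 0.00028). In the other 4 strains the log2 fold changes lay between -0.24 in A/J and 0.28 in 129S1/SvImJ, and none was called.

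On chromosome 7, neighbouring Zfp975 and Zfp976 differed in pattern. Zfp975 was at 0.591, 0.452 and 0.733 in DBA/2J and at 1.55, 1.64 and 0.869 in A/J, while the other 7 strains had means from 2.02 CPM in C57BL/6J to 3.35 CPM in PWK/PhJ. All 3 DBA/2J libraries lay below the 24 others, and DBA/2J was lower than C57BL/6J (log2 fold change -1.74, SE 0.28, edgeR adjusted p = 0.000115). Zfp976 was at 3.96, 6.66 and 5.25 in WSB/EiJ, 5.00, 3.65 and 5.83 in CAST/EiJ and 5.87, 6.56 and 6.64 in PWK/PhJ, and the 6 other strains had means of 2.23 to 2.44 CPM. The 9 libraries of the wild-derived strains lay above the 18 of the other strains. The log2 fold changes against C57BL/6J were 1.25 in WSB/EiJ, 1.11 in CAST/EiJ and 1.52 in PWK/PhJ, with edgeR adjusted p of 0.00231, 0.00263 and 0.00018. Zfp941, also on chromosome 7 but far from these, was at 2.00, 1.99 and 0.763 in PWK/PhJ, 1.73, 1.26 and 0.513 in NZO/HlLtJ, 0.273, 0.411 and 0.631 in C57BL/6J, 0.744, 0.859 and 0.652 in 129S1/SvImJ and 0.639, 0.281 and 0.474 in A/J. It was at 0.591, 0.653 and 0.446 in DBA/2J, 1.27, 0.589 and 0.941 in NOD/ShiLtJ, 0.590, 1.25 and 0.598 in WSB/EiJ and 0.591, 0.423 and 0.773 in CAST/EiJ. PWK/PhJ was higher than C57BL/6J by a log2 fold change of 1.85 (SE 0.49, edgeR adjusted p = 0.00636). The NZO/HlLtJ libraries overlapped those of C57BL/6J (log2 fold change 1.43, SE 0.49, edgeR adjusted p = 0.0306), and that call was lost without any 1 of 4 libraries (C57BL/6J replicates 1 and 2, NZO/HlLtJ replicates 1 and 2), at adjusted p of 0.0771 to 0.163.

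Several members stood apart in 1 strain. Zfp945, with 18 fingers and no shared window, was at 1.24, 1.48 and 1.13 in PWK/PhJ and at strain means of 3.83 to 5.60 CPM elsewhere, so that PWK/PhJ lay below all other libraries and was lower than C57BL/6J (log2 fold change -2.02, SE 0.28, edgeR adjusted p = 4.7e-06). Zfp938 on chromosome 10 was at 0.295, 0.302 and 0.464 in CAST/EiJ, below all 24 other libraries, and CAST/EiJ was lower than C57BL/6J (log2 fold change -2.12, SE 0.38, edgeR adjusted p = 0.000106). Zfp995 on chromosome 17 was at 3.55, 4.33 and 2.49 in PWK/PhJ, above all others (log2 fold change 1.53, SE 0.37, edgeR adjusted p = 0.00292). Zfp951 on chromosome 5 was at 1.56, 2.14 and 2.67 in WSB/EiJ and Zfp963 on chromosome 8 at 3.58, 3.35 and 4.00 in WSB/EiJ, in both cases above the 24 other libraries. Their edgeR adjusted p against C57BL/6J were 0.00711 and 0.00307. The Zfp951 call was lost without WSB/EiJ replicate 4 (adjusted p = 0.0505). Of the Zfp963 windows, 38.0% are shared, mainly with Gm20422, a gene that overlaps it on the same strand.

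Zfp960 on chromosome 17 was at 4.03 ± 0.740 CPM in CAST/EiJ and 0.643 ± 0.416 CPM in PWK/PhJ, and both differed from C57BL/6J, by log2 fold changes of 1.03 (edgeR adjusted p = 0.0126) and -1.60 (adjusted p = 0.00118). The CAST/EiJ call was lost without C57BL/6J replicate 2 or CAST/EiJ replicate 1. Of the Zfp960 transcript windows 69.2% occur in Zfp97. Zfp953 on chromosome 13 was at 3.12 ± 0.434 CPM in C57BL/6J and 1.57 ± 0.0262 CPM in DBA/2J, which was lower (log2 fold change -0.98, SE 0.22, edgeR adjusted p = 0.0036). In a fit of only the 6 libraries of these 2 strains the fold change was the same but not called (edgeR adjusted p = 0.0616). Zfp932, a KRAB protein known to silence endogenous retroviruses, was at 3.87 ± 0.927 CPM in CAST/EiJ and 1.76 ± 0.444 CPM in A/J (edgeR adjusted p = 0.00824), with no strain called against C57BL/6J.

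**Figure D4:**
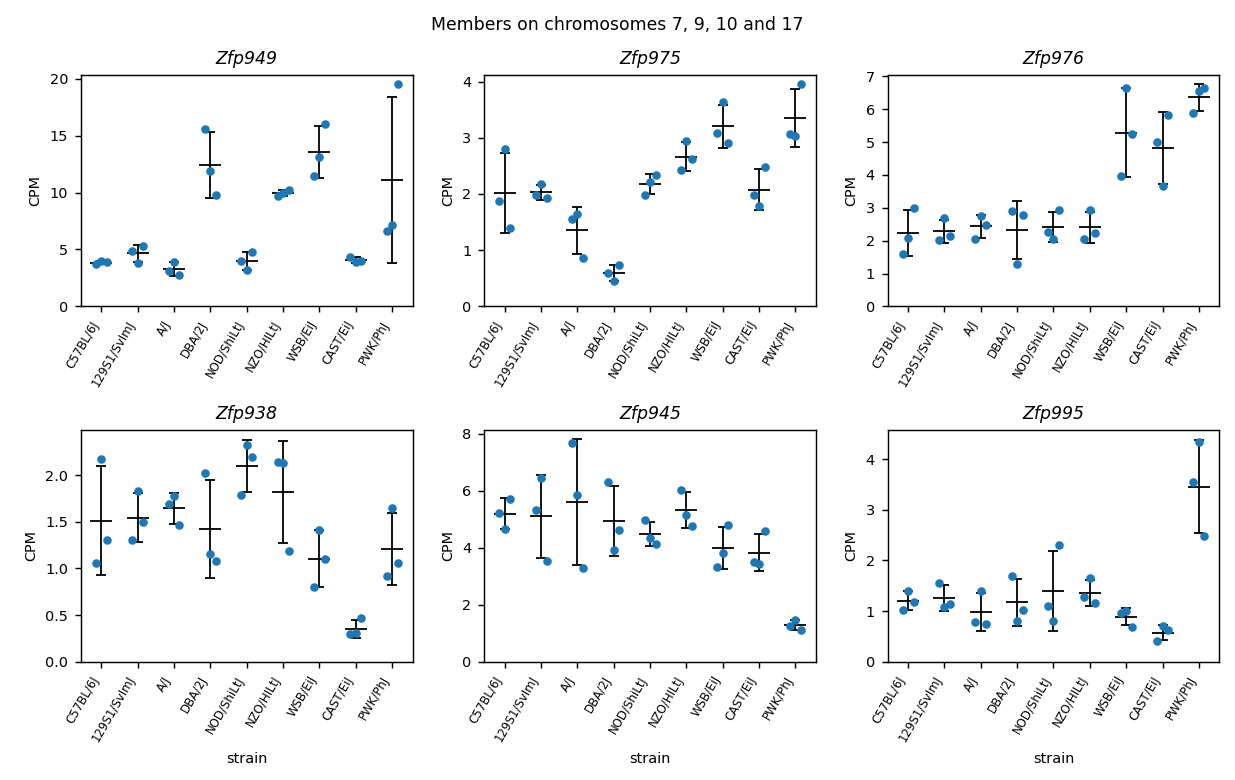
CPM of 6 members outside the chromosome 2 and 4 chains in each strain: points are the 3 libraries, bars the mean and error bars the SD, each panel with its own linear axis from 0. Zfp949 is at 6.59 CPM or above in DBA/2J, NZO/HlLtJ, WSB/EiJ and PWK/PhJ, Zfp975 is lowest in DBA/2J, Zfp938 in CAST/EiJ and Zfp945 in PWK/PhJ.

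The chromosome 17 chain is the largest in which all members were detected. Summed over its 10 members, the chain gave 31.6 ± 2.69 CPM in WSB/EiJ and 40.0 ± 4.83 CPM in NOD/ShiLtJ. Zfp946, its highest member per kilobase, was at 6.08, 7.31 and 6.56 in C57BL/6J, 8.28, 9.07 and 7.47 in 129S1/SvImJ, 11.01, 8.66 and 6.87 in A/J, 8.02, 6.58 and 6.22 in DBA/2J and 6.78, 7.55 and 10.1 in NOD/ShiLtJ. It was at 7.93, 9.44 and 9.21 in NZO/HlLtJ, 6.03, 7.99 and 8.06 in WSB/EiJ, 5.64, 5.80 and 5.46 in CAST/EiJ and 5.99, 6.80 and 6.94 in PWK/PhJ. CAST/EiJ was lowest by a narrow margin, at 5.80 against 5.99 CPM (edgeR adjusted p = 0.0195), and no strain was called against C57BL/6J. With the Kupffer cell and endothelial means as covariates the Zfp946 strain effect was not called (adjusted p = 0.0518). Zfp943 (edgeR adjusted p = 0.0151), Zfp944 (0.0104), Zfp947 (0.0153) and Zfp942 (0.041) were called among the strains with ranges of 1.59 to 5.59 times between strain means. The Zfp942 call was lost without any 1 of 12 libraries, at edgeR adjusted p of 0.0521 to 0.101, namely replicate 1 of 129S1/SvImJ, replicate 2 of DBA/2J, replicates 1 and 3 of NOD/ShiLtJ and PWK/PhJ, replicates 2 and 3 of NZO/HlLtJ and WSB/EiJ, and replicates 1 and 5 of CAST/EiJ. The reads of Zfp943 cannot be told from those of Gm9772, which overlaps it on the opposite strand.

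A strain effect was not called for 15 tested members, which were Zfp937, Zfp991, Zfp933, Zfp954, Zfp974, Zfp977, Zfp958, Zfp930, Zfp964, Zfp961, Zfp948, Zfp983, Zfp994, Zfp959 and Zfp950. Zfp937 on chromosome 2, outside the chain, was at 0.786, 0.821 and 1.26 in C57BL/6J, 1.12, 1.34 and 0.880 in 129S1/SvImJ, 1.37, 0.889 and 0.790 in A/J, 1.39, 0.854 and 1.24 in DBA/2J and 1.59, 0.693 and 0.976 in NOD/ShiLtJ. It was at 1.17, 1.62 and 1.28 in NZO/HlLtJ, 0.843, 0.968 and 0.414 in WSB/EiJ, 1.24, 0.785 and 0.980 in CAST/EiJ and 1.12, 1.20 and 0.465 in PWK/PhJ. Its strains overlapped, with edgeR adjusted p = 0.671. Zfp964 on chromosome 8 was lower, at 0.239, 0.205 and 0.210 in C57BL/6J, 0.899, 0.115 and 0.326 in 129S1/SvImJ, 0.320, 0.187 and 0.0790 in A/J, 0.296, 0.151 and 0.255 in DBA/2J and 0.260, 0.104 and 0.314 in NOD/ShiLtJ. It was at 0.306, 0.278 and 0.0962 in NZO/HlLtJ, 0.464, 0.121 and 0.276 in WSB/EiJ, 0.355, 0.453 and 0.361 in CAST/EiJ and 0.280, 0.344 and 0.232 in PWK/PhJ. These strains overlapped as well (edgeR adjusted p = 0.619), and the gene met the detection rule in no strain. Zfp961 overlaps Cyp4f18 and Zfp974 overlaps Gm26891 on the opposite strand. The library kit named in the labels does not mark strand, so reads within these overlaps cannot be told from those of the partners. No window of the longest Zfp961 transcript is shared.

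Set against C57BL/6J, the numbers of members called differed by strain. In 129S1/SvImJ 0 of 50 were higher (background 9.2%) and 3 lower (11.7%), namely Zfp982, Zfp984 and Zfp943. In A/J 0 were higher (3.81%) and 1 lower (4.03%), Zfp982. In DBA/2J 1 was higher (4.9%), Zfp949, and 4 lower (4.16%), Zfp982, Zfp984, Zfp975 and Zfp953. In NOD/ShiLtJ 5 were higher (7.39%), of which 4 were in the chromosome 2 chain, and 3 lower (8.51%). In NZO/HlLtJ 3 were higher (13.2%), Zfp973, Zfp941 and Zfp949, and 4 lower (16.2%). In total 1 to 8 members were called in each of these 5 strains. When each of the 6 libraries of a comparison was left out in turn, all 5 calls in DBA/2J were kept in every fit. In 129S1/SvImJ Zfp943 was lost in all 6 (edgeR adjusted p of 0.0578 to 0.11) and in A/J Zfp982 was, which left no call there. In NOD/ShiLtJ 4 to 5 of the higher calls and 1 to 3 of the lower ones were kept, and only Zfp982 of the lower ones was kept in every fit. Zfp984 and Zfp953 (0.061 to 0.105) were both lost there without C57BL/6J replicate 2 or 4 or NOD/ShiLtJ replicate 2 or 3. In NZO/HlLtJ 1 to 2 of the higher calls and 2 to 3 of the lower ones were kept, and Zfp949, Zfp982 and Zfp984 were kept in every fit. The call of Zfp943 was lost there without any 1 library (0.0637 to 0.119), that of Zfp953 without C57BL/6J replicate 2 or 4 or NZO/HlLtJ replicate 1 or 3 (0.0936 to 0.134) and that of Zfp973 without C57BL/6J replicate 1 or 4 or NZO/HlLtJ replicate 2 or 3 (0.12 to 0.171).

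In WSB/EiJ 7 members were higher (background 6.88%) and 2 lower (6.76%), Zfp982 and Zfp943. With 1 library left out, 5 to 7 of the higher calls and 0 to 1 of the lower ones were kept. Zfp982 was lost in all 6 fits and Zfp943 in all except the one without WSB/EiJ replicate 4 (edgeR adjusted p of 0.0546 to 0.153). In CAST/EiJ 10 were higher (18.4%) and 8 lower (19.7%). With 1 library left out, 8 to 9 of the higher calls were kept, and 7 were kept in every fit. Zfp972 was lost in 5 of the 6 fits (edgeR adjusted p of 0.0594 to 0.154), Zfp973 in 2 (0.0594 to 0.0615) and Zfp960 in 2 (0.0654 to 0.0661). Of the lower ones, 7 were kept without C57BL/6J replicate 1, 4 without C57BL/6J replicate 2 or CAST/EiJ replicate 4, and 5 without any 1 of the other 3 libraries. Only Zfp982, Zfp984 and Zfp938 of the lower ones were kept in every fit, while Zfp992, Zfp991, Zfp956, Zfp995 and Zfp950 were each lost in at least 3. In PWK/PhJ 11 were higher (12.5%) and 5 lower (13.7%). The CAST/EiJ increases comprised 8 members of the chromosome 2 chain together with Zfp976 and Zfp960, and the PWK/PhJ increases comprised 5 of that chain together with Zfp979, Zfp976, Zfp975, Zfp941, Zfp949 and Zfp995. In PWK/PhJ 10 to 11 of the higher calls and 4 to 5 of the lower ones were kept with 1 library left out. The Zfp947 call was lost there without C57BL/6J replicate 1 or 4 or PWK/PhJ replicate 2 or 3 (edgeR adjusted p of 0.0606 to 0.128) and with the marker covariates (0.199). The Zfp975 call in PWK/PhJ was lost without C57BL/6J replicate 1 or 4 or PWK/PhJ replicate 3, at edgeR adjusted p of 0.0882 to 0.192. With the Kupffer cell and endothelial means as covariates, the members called fell from 18 to 7 in CAST/EiJ, from 8 to 4 in NOD/ShiLtJ, from 7 to 1 in NZO/HlLtJ and from 3 to 1 in 129S1/SvImJ. The share of all genes called in that fit is not given here, so these falls have no background beside them. The CAST/EiJ calls lost were those of Zfp931 (edgeR adjusted p = 0.0559), Zfp976 (0.109), Zfp960 (0.0738), Zfp992 (0.169), Zfp950, Zfp956, Zfp972, Zfp973, Zfp984, Zfp991 and Zfp995, and in NZO/HlLtJ all except that of Zfp982 were lost, including Zfp949 (0.0561). The 8 comparisons share the C57BL/6J libraries, so they are not independent of one another. Zfp982, which passed the filter through C57BL/6J alone, was called lower than C57BL/6J in all 8, but the calls in A/J and WSB/EiJ were lost without any 1 library, with DESeq2 (adjusted p of 0.0592 and 0.0788) and with no filter on low counts (edgeR adjusted p of 0.0722 and 0.0916). Among the 35 members with a called strain effect, the top strain was CAST/EiJ for 9 and PWK/PhJ for 9, each 25.7% of the members. Over all called genes the shares were 18.9% and 17%.

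**Figure D5:**
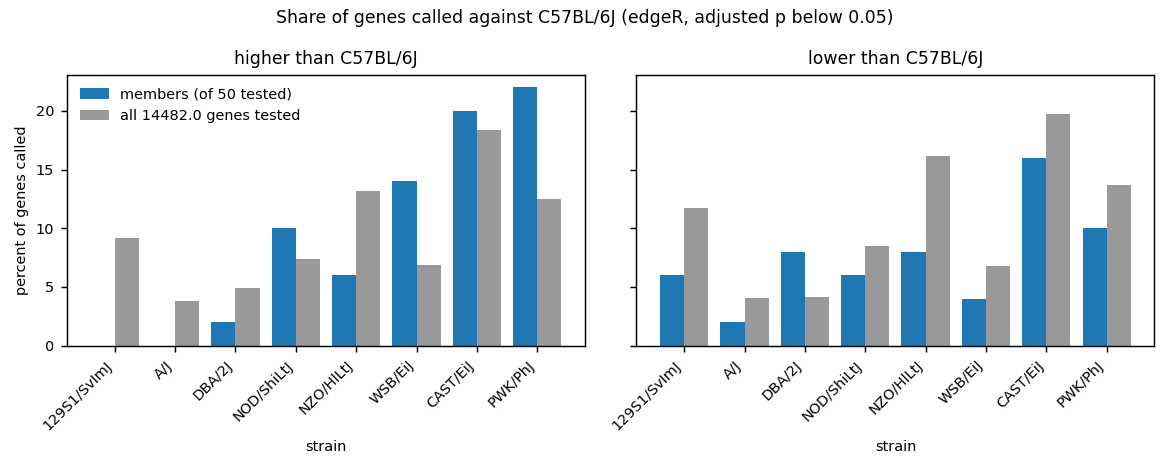
Percent of genes called higher (left) or lower (right) than C57BL/6J in each of the other 8 strains, for the 50 tested members (blue) and all 14482 tested genes (grey). Members stand above the grey bars for higher calls in WSB/EiJ and PWK/PhJ. They do so by little in NOD/ShiLtJ (5 of 50 against 7.39%) and CAST/EiJ (10 of 50 against 18.4%). They stand below the grey bars for lower calls in every strain other than DBA/2J.

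The genes whose products act with KRAB zinc finger proteins were examined beside the members. Of 32 such genes tested, 18 were called among the strains, which is 56.2% against 74.2% of all genes tested, with a median log2 range of 0.552 against 0.941. Trim28, the corepressor that KRAB domains bind, ran from 36.6 ± 1.90 CPM in C57BL/6J to 51.1 ± 2.63 CPM in NOD/ShiLtJ (edgeR adjusted p = 0.00676). Setdb1, the methyltransferase recruited by TRIM28, was at 9.79 ± 1.30 CPM in NOD/ShiLtJ and 26.3 ± 3.33 CPM in PWK/PhJ (edgeR adjusted p = 3.49e-06), and the other strains lay between. In all, 7 of the 32 were called with at least a 2-fold range, which is 21.9% against 43.6% of all genes tested. Besides Setdb1, these were Hdac1, a histone deacetylase, and Chd3, a remodeller, both found in the NuRD complex, the DNA methyltransferase Dnmt3b, the maintenance methylation factor Uhrf1, the histone methyltransferase Suv39h2 and the remodeller Hells. Chd3 was at 99.1 ± 14.2 CPM in DBA/2J and 31.4 ± 3.51 CPM in NZO/HlLtJ. Dnmt3b was at 6.67 ± 1.75 CPM in PWK/PhJ and 1.99 ± 0.836 CPM in C57BL/6J. Hdac1 had its highest mean in PWK/PhJ, at 13.4 ± 1.58 CPM, and its lowest in WSB/EiJ, at 5.88 ± 1.37 CPM. Uhrf1, Suv39h2 and Hells had strain means of at most 1.60 CPM.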

How the data were processed

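Gene expression was measured as poly(A) RNA in 27 liver hepatocyte libraries, 3 from each of 9 strains. The authors deposited 1 table of estimated counts per Ensembl gene, not scaled to depth, in which 14.7% of values were not whole. Per the submitters' processing notes, FastQC 0.11.5, DESeq2 and the builds GRCm38 and mm10 were named. The aligner, the counting program, the annotation release and the genome to which reads of each strain were assigned are not given in the sources used here. Gene symbols and positions came from GENCODE M21, which held 42462 of the 43346 gene IDs. The unmatched IDs took 0.0579% of the counts.

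The members and gene lists were chosen with earlier results of these data known. Counts were rounded to whole numbers, genes passing filterByExpr by strain were kept (14482 genes), and libraries were scaled by TMM, with factors from 0.722 to 1.23. The quasi-likelihood F test of edgeR 4.0.16 in R 4.3.3 was fitted with strain over all 27 libraries, for all strain coefficients together and for each strain against C57BL/6J. The Benjamini-Hochberg adjustment ran over all genes, and adjusted p-values below 0.05 were called. The fit was tested on simulated counts with known changes. CPM used the TMM-scaled library sizes. The range between strains was taken on log2(CPM + 0.5), which understates the change of low genes. Where all 3 libraries of a strain held at most 3 counts, a fold was computed against 3 counts per library, a floor that covers counting error only.

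Values in every library were given for the 8 members with the largest F, the most increased and decreased called member per strain, members detected in 1 strain with at most 3 counts in each library of another, the 3 with the smallest F and the 3 highest per kilobase. Zfp973, Zfp965, Zfp972, Zfp969, Zfp992, Zfp993, Zfp975, Zfp976, Zfp945, Zfp938, Zfp995, Zfp951, Zfp963, Zfp960, Zfp953 and Zfp932 were added after their values were seen. C2H2 fingers were counted as 2 cysteines with 2 residues between them, 12 residues, and 2 histidines with 3 to 5 residues between them. The KRAB pattern was searched in the first 150 residues. Promoter windows were aligned with Biopython 1.88, keeping alignments of at least 200 bases.

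Replicate pairs differed beyond sampling noise in all 27 cases (chi-square per degree of freedom 24.4 to 135). The alternatives were DESeq2 1.42.0 and its size factors, no filter, a mean of at least 10 counts, a replicate block, a GC correction, unrounded counts, marker covariates, fits of 6 libraries, and leaving out each library.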

Additional observations from a re-analysis of the deposited data

How the results depend on the processing

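Of 256 counts under alternatives, 229 lay within 1.5 times the reported value, and of 821 values for named members, 785 kept their direction and their side of the threshold. The 35 members called among the strains ranged from 33 to 37 when 1 library was left out. The 48 detected members became 48 to 49, but leaving out a library can only keep or raise that number, so it does not test the detection. Calls against C57BL/6J rest on few members in some strains, and their number moved as follows. For 129S1/SvImJ (3 members) it was 5 with the GC trend removed, 1 with marker covariates, and 2 to 5 without 1 library. For A/J (1 member) it was 0 with DESeq2, with no filter, with a mean of at least 10 counts and with the replicate block, 2 with the GC trend removed, 2 with marker covariates, and 0 to 1 without 1 library. For DBA/2J (5) it was 3 with a mean of at least 10 counts. For NOD/ShiLtJ (8) it was 5 with that filter, 4 with marker covariates, and 5 to 8 without 1 library. For NZO/HlLtJ (7) it was 4 with no filter, 3 with the replicate block, 1 with marker covariates, 4 in a fit of 6 libraries, and 4 to 5 without 1 library. For CAST/EiJ (18) it was 7 with marker covariates and 12 to 15 without 1 library. The fold change of Zfp991 in CAST/EiJ was 1.89 without C57BL/6J replicate 1, since that library alone among the C57BL/6J libraries held its counts, and ran from -6.40 to 1.89 over all libraries left out. The cause of the other changes was not tested. Fewer genes are tested under the stricter filter, which removes Zfp979, Zfp982 and Zfp984.

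Replicate numbers are shared between strains, but they did not pair the libraries: of 76 same-numbered pairs, 17 had deviations correlated above 0.1, with correlations from -0.293 to 0.275, and 7 of the 27 libraries matched best with a library of their own number. With the replicate block, 27 members were called, all among the 35 and without Zfp935, Zfp940, Zfp942, Zfp943, Zfp944, Zfp946 (edgeR adjusted p = 0.148), Zfp956 and Zfp969, 12 KRAB partner genes were called in place of 18, and the count was 12 for CAST/EiJ, 15 for PWK/PhJ and 6 each for DBA/2J, NOD/ShiLtJ and WSB/EiJ. Depth limits the members near the detection rule, since 10 counts corresponded to 0.253 to 0.516 CPM.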
